A study of Mus musculus with 6 samples.

Results

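Genes of growth factor, TGF-beta, ephrin and Notch signalling were examined in injured mouse kidney. They were taken from the deposited table by gene symbol, and 58 of its 7340 genes matched. The 58 genes comprise 22 ligands, 20 receptors, 4 extracellular binding proteins and 12 proteins that act inside the cell. They fall into 8 families: EGF and ErbB (4), FGF (5), PDGF and VEGF (3), insulin and IGF (9), the HGF receptor (1), TGF-beta, BMP and activin (22), ephrin (6) and Notch (8). The symbols also brought in Igf2bp1, an mRNA-binding protein, and Bmp2k, an intracellular kinase, neither of which is a growth factor. RNA was sequenced from the kidneys of wild-type mice after ischaemia-reperfusion injury (IRI), in which blood flow is stopped and then restored. Libraries IRI 1 to IRI 3 had the injury alone, and MK 1 to MK 3 had the injury with MK-8617, a small molecule that blocks the prolyl hydroxylases by which the hypoxia-inducible factor HIF is tagged for destruction. All values below are listed in that order. Both groups were injured, and no uninjured kidney was analysed here. The series' design text speaks of tumours, whereas every sample label says kidney. The labels give no age, strain, dose or time, the deposited columns of both groups carry the tag 1d, which no label explains, and the treatment entries of MK 2 and MK 3 name MK8618 and MK8619, where the titles, followed here, name MK8617. Nothing in the labels says that the libraries of a group came from separate animals, so p-values measure only the spread between these libraries, which may be technical.

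These pathways carry signals between the cells of the kidney. Ligands such as EGF, FGF, IGF and HGF bind receptor tyrosine kinases and drive growth and survival of tubule cells. TGF-beta, BMP and activin ligands bind pairs of type I and type II serine/threonine kinase receptors, which phosphorylate Smad proteins. Ephrins and Notch ligands are held in the membrane and act on Eph and Notch receptors of touching cells, and all of these systems are known to take part in kidney development, in repair after injury and in fibrosis.

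The counted reads per library were 16835541 to 19508497. Values are normalised reads, which are gene counts divided by 1 size factor per library, and a fold change is IRI with MK-8617 over IRI on the scale log2(normalised reads + 1). A gene is said to rise or fall where limma gave an adjusted p below 0.05. The table is itself a selection, since the largest p it lists from the deposited comparison is 0.0499, and members of these families outside it were not analysed here. Markers of the kidney were present, among them Umod and Slc12a1 of the thick ascending limb, Pvalb and Trpm6 of the distal tubule and Nphs1 and Wt1 of podocytes. The collecting duct marker Avpr2 had 3, 5 and 5 reads with IRI and 0 in each MK-8617 library, and no other listed marker was at 0 in a library. Summed proximal tubule markers (4 of 12 listed, 1 higher and 1 lower) stood at 1590, 1710 and 569 CPM with IRI and at 2490 to 2750 CPM with MK-8617, so IRI 3 stood apart. Podocyte markers (4 of 7 listed, 3 higher) stood at 76.5 to 85.8 and 129 to 144 CPM. Of the thick ascending limb markers (4 of 6 listed) 3 were lower, with 1480 to 2420 and 1760 to 2910 CPM in sum. Of the distal tubule markers (5 of 6 listed) 3 were higher, with 2560 to 2750 and 1770 to 2580 CPM. Most of the proximal tubule sum came from Slc27a2 (mean 1370 CPM over all libraries), which was not called. Likewise Umod (2070 CPM) made up most of the thick ascending limb sum and Klk1 (2210 CPM) most of the distal tubule sum. Neither was called. Collecting duct markers (5 of 10 listed, 2 lower) stood at 262 to 283 and 133 to 176 CPM, and the neutrophil markers S100a8 and S100a9, the 2 listed of 13 lymphocyte and neutrophil markers, were both lower, at 29.8 to 46.7 and 10.5 to 26.4 CPM. The part of these shifts in the results below was not tested. Because changes in the table varied with gene length, each fold change was also computed after subtracting a trend over length, called length correction. A further setting subtracted trends over length and GC content. The length in both was that of the longest annotated transcript, whereas lengths in exon bases below are summed over all exons.

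All 58 genes passed the filter on low values. With MK-8617, 39 rose, 10 fell and 9 did not pass the test. Of all 6961 genes tested, 74.3% were called, 35.7% higher and 38.7% lower. The median log2 fold change of the 58 genes was 0.54, against -0.31 over all tested genes. The MK-8617 libraries lay all above the IRI libraries in 43 of the 58 genes and all below in 12, against 44.8% and 47.6% of all tested genes. The groups overlapped in 3 genes, Vegfd, Tgfb3 and Heyl, and they did not overlap in 92.5% of all tested genes. The table was selected by p from these same libraries, so groups that stand apart are common in it. Where this is stated below, it describes the values and adds no support to a call. Only 6 genes fell when IRI 1 or MK 2 was left out, or in edgeR. Of all 6961 tested genes 2032, 2082 and 2333 fell in these settings. Leaving out single libraries gave 27 to 38 genes that rose, the lowest without MK 3. By role, 12 of 22 ligands rose and 4 fell, and 15 of 20 receptors rose and 4 fell.

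**Figure D1:**
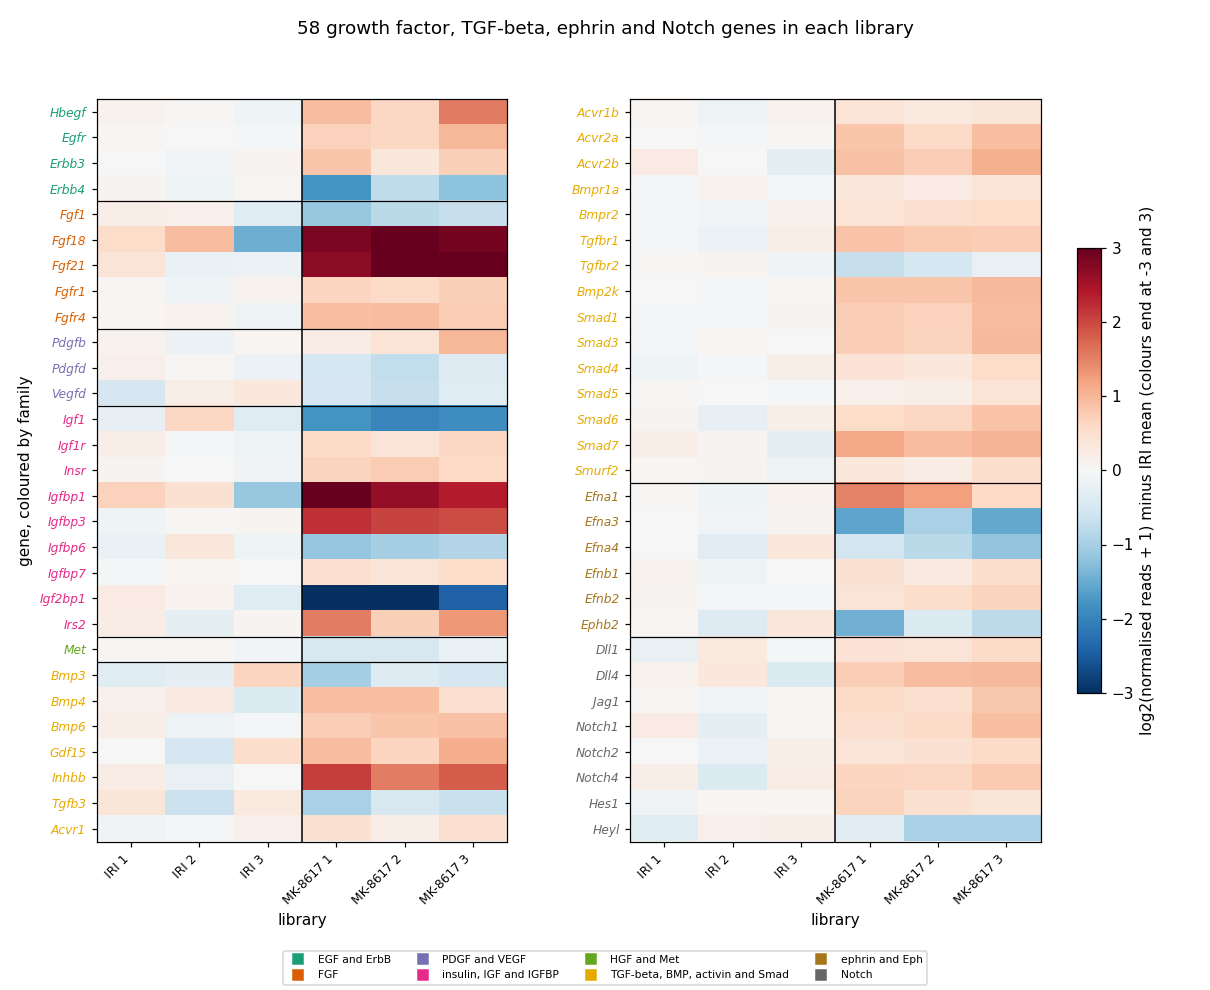
Each row is 1 of the 58 genes and each column 1 library, and colour gives log2(normalised reads + 1) minus the gene's mean over the 3 IRI libraries, with colours ending at -3 and 3 and gene names coloured by family. Fgf18, Fgf21, Igfbp1, Igfbp3 and Inhbb are darkest on the higher side in all 3 MK-8617 libraries, and Igf2bp1 and Igf1 on the lower side.

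**Figure D2:**
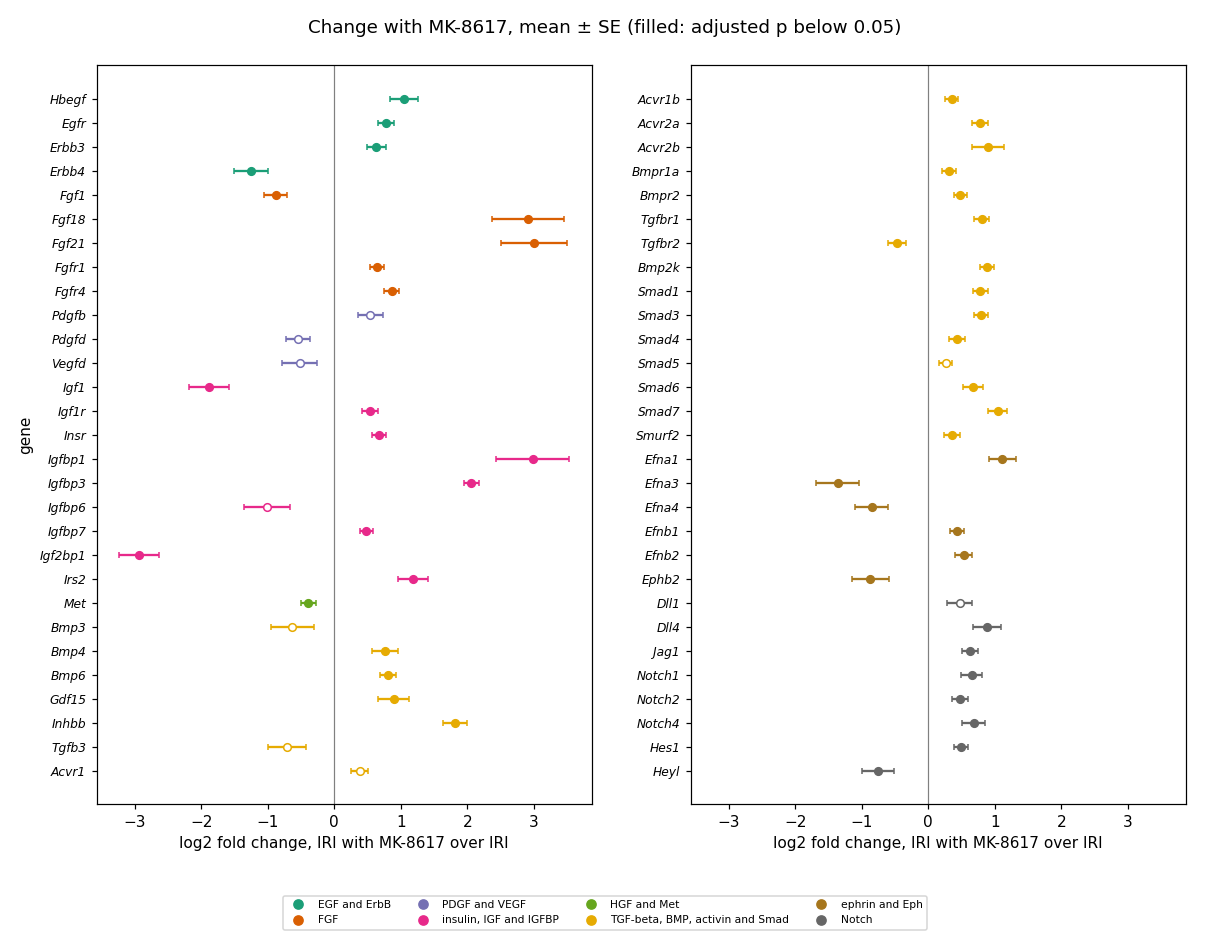
Points give the log2 fold change of each gene, IRI with MK-8617 over IRI, with the SE as a bar, and filled points passed an adjusted p of 0.05. Of the 58 genes 39 lie to the right of 0 and passed, and 10 lie to the left and passed.

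Some results turn on genes that lie next to each other (Igfbp1 with Igfbp3, and Efna1 with Efna3 and Efna4), and their promoters are shown for that reason. The letters are the 250 bases before the transcription start in RefSeq (GRCm38.p6), 5′ to 3′ on the strand of the gene. Capitals mark ACGTG or GCGTG, the core letters of the element that HIF binds, on either strand (CACGT and CACGC when read on the strand shown).
Igfbp1 (chr11:7197537-7197786, plus strand): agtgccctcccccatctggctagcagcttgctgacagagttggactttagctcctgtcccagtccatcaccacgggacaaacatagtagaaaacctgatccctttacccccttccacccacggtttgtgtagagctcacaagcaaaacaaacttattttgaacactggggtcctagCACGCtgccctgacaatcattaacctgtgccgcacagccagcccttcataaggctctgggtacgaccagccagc
Igfbp3 (chr11:7213924-7214173, minus strand): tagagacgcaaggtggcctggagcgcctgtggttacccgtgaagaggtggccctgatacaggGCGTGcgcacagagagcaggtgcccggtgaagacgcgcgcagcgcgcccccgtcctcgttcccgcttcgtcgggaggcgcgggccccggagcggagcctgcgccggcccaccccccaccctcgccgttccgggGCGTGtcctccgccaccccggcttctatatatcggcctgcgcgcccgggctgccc
Efna1 (chr3:89280952-89281201, minus strand): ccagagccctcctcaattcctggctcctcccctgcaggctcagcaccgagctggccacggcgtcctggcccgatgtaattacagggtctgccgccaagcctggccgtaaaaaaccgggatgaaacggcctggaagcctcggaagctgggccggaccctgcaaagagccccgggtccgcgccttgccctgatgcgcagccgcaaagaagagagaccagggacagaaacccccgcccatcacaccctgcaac
Efna3 (chr3:89322940-89323189, minus strand): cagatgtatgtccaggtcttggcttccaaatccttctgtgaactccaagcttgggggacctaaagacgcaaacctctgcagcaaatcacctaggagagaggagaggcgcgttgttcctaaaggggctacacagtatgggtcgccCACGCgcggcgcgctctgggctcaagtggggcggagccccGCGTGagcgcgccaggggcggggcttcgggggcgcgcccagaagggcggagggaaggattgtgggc
Efna4 (chr3:89338029-89338278, minus strand): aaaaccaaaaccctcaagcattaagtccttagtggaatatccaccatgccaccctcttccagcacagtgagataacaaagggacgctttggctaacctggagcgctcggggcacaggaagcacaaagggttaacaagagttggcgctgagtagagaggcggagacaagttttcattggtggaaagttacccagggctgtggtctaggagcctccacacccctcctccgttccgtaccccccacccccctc
The promoters of Igfbp1 and Igfbp3, which rose, hold 1 and 2 such cores. That of Efna1, which also rose, holds none, while that of Efna3, which fell, holds 2. RefSeq promoters were at hand for 45 of the 58 genes, and 30 of them (66.7%) hold a core, against 38.6% of all 32851 promoters and 55.5% of the promoters of 4916 other listed coding genes. A core was present in 23 of 32 promoters of genes that rose and in 5 of 7 of genes that fell. The letters GTGGGAA of the Notch cofactor RBPJ were found in 2 of the 45 promoters and in 5.42% of all, and the Smad palindrome, GTCT followed by AGAC, in 0 and in 0.167%. A match is a run of letters, not a shown binding site.

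The insulin and IGF family held the largest change among the abundant genes, with higher binding proteins and receptors and a lower ligand. IGF-binding proteins hold IGF in the extracellular space and limit its access to the receptor. Igfbp3, the main IGF carrier (ENSMUSG00000020427, GRCm38 chromosome 11, 7206086 to 7213923), had 2373.7, 2669.7 and 2728.2 normalised reads in the IRI libraries. With MK-8617 it had 11838.5, 10584.1 and 10092.2. Every MK-8617 library was far above every IRI library. Its log2 fold change was 2.06 ± 0.11 (SE, n = 3 per group), a 4.18-fold rise with a limma adjusted p of 1.67e-05. Igfbp1, a binding protein gene known to respond to hypoxia and insulin, lies 3539 bases from Igfbp3 on chromosome 11 (7197782 to 7202546) and is transcribed towards it. It had 33.1, 28.2 and 8.63 normalised reads with IRI and 327.9, 131.3 and 108.5 with MK-8617. The groups did not overlap, although the libraries of each group were unequal, and the log2 fold change was 2.98 ± 0.55 (adjusted p = 0.00449). Igfbp1 and the ephrin gene Efna4 are given in full because of their position, a choice made after their values were seen. Igfbp7, an IGFBP-related protein of vessel walls and the most abundant of the 58 genes per length, rose by 0.48 ± 0.1 (1 after length correction and 1.04 after length and GC correction) and went from 767 ± 28.5 to 1060 ± 67.8 FPKM (SD). Igfbp6, a low-level binding protein gene that prefers IGF2, stood at 26.8 ± 6.01 and 12.6 ± 1.29 normalised reads and did not pass the test (-1.01, adjusted p = 0.0612), but did with a pseudocount of 5 (-0.84).

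Igf1, the ligand, went the other way. It had 111.7, 205.9 and 103.5 normalised reads with IRI and 37.9, 33.1 and 36.2 with MK-8617, so that the lowest IRI library was well above the highest MK-8617 library. The log2 fold change was -1.88 ± 0.3 (adjusted p = 0.00235). Insr, the insulin receptor, rose from 1100.7, 1053.8 and 967.2 to 1659.7, 1749.3 and 1563.1 normalised reads, with a log2 fold change of 0.67 ± 0.1 (adjusted p = 0.00156). It was 0.42 after length correction and 0.4 after length and GC correction, still past the threshold. The IGF1 receptor gene Igf1r rose by 0.53 ± 0.12, a call lost after length correction (0.25) and after length and GC correction (0.28). Irs2, the adaptor that couples both receptors to PI3 kinase, rose by 1.18 ± 0.22, from 420 ± 76.5 to 969 ± 266 normalised reads. Igf2bp1, the mRNA-binding protein that the symbol brought in, is known from fetal tissue and tumours. It had 236.6, 214.0 and 154.3 normalised reads with IRI and 20.5, 21.3 and 36.2 with MK-8617, a log2 fold change of -2.93 ± 0.3 (adjusted p = 0.000317). This was the largest fall among the 58 genes. In whole tissue, fewer cells of a type and less RNA per cell cannot be told apart, here and in the results that follow. Fibroblast and mural markers were lower in 9 of the 10 of 12 that were listed, with a summed level of 1100 to 1880 CPM with IRI and 347 to 430 CPM with MK-8617. The exception was Dcn, which was higher. Macrophage markers were lower in 7 of the 8 of 12 that were listed and higher in 0, with 151 to 297 CPM against 61.8 to 80.5 CPM. None of these markers was at 0, and their part in the fall of Igf1 was not tested. Of the other genes of this pathway 11 of 34 were listed, of which 3 rose and 1 fell. The share called was 36.4%, against 74.3% of all tested genes. The PI3 kinase regulatory subunit gene Pik3r1 rose by 1.47 ± 0.16, the mTOR complex gene Rictor by 0.66 ± 0.11 (0.31, no longer called, after length and GC correction), and Insrr, an insulin receptor-related receptor, fell (-1.65 ± 0.32).

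**Figure D3:**
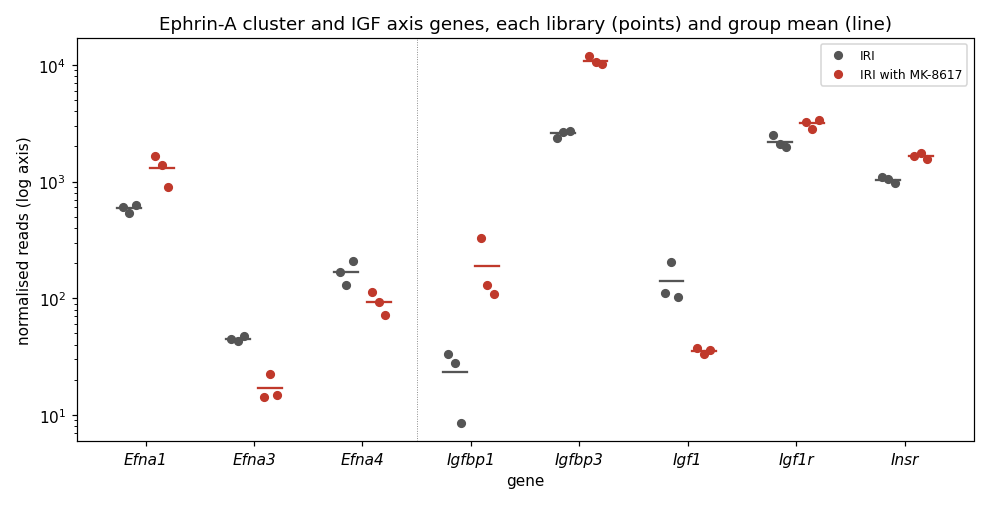
Points are single libraries and lines group means, in normalised reads on a log axis, for the ephrin-A genes that lie together on chromosome 3 and for genes of the IGF axis. Efna1 is higher with MK-8617 while Efna3 and Efna4 are lower, and Igfbp1 and Igfbp3 are higher while Igf1 is lower.

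In the ephrin family 3 genes rose and 3 fell (100% called, against 74.3% of all tested genes), and neighbouring ligands moved in opposite directions. Ephrin-A ligands are attached to the membrane by a lipid anchor and bind EphA receptors. Efna1, Efna3 and Efna4 lie on the minus strand of chromosome 3 within 1 stretch, with gaps of 32756 bases between Efna1 and Efna3 and 10424 bases between Efna3 and Efna4. Efna1 (ENSMUSG00000027954, GRCm38 chromosome 3, 89271733 to 89281142) had 604.8, 540.1 and 633.6 normalised reads with IRI and 1670.0, 1391.7 and 894.3 with MK-8617. All MK-8617 libraries were above all IRI libraries, with a log2 fold change of 1.11 ± 0.2 (adjusted p = 0.0044). Efna3 (chromosome 3, 89313899 to 89322965) had 44.5, 42.8 and 47.9 normalised reads with IRI and 14.3, 22.4 and 14.9 with MK-8617, a log2 fold change of -1.36 ± 0.32 (adjusted p = 0.0125). Efna4 (chromosome 3, 89333390 to 89338028) had 168.5, 131.2 and 208.0 against 113.7, 93.9 and 72.3, and its groups did not overlap either (-0.85 ± 0.25, adjusted p = 0.0317). Efna4 no longer passed without IRI 1 (-0.84), IRI 3 (-0.69), MK 2 (-0.87) or MK 3 (-0.68), with limma-voom (-0.78) and after length correction (-0.51) and after length and GC correction (-0.45). Exons of Efna3 and Efna4 share 14.1% and 10.5% of their bases with genes of the opposite strand, whose reads cannot be told apart where strand is not counted.

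The ephrin-B ligands span the membrane and mark, among others, arterial and mural cells. Efnb2 rose from 344.5, 316.1 and 310.6 to 420.1, 468.5 and 516.8 normalised reads (0.53 ± 0.13, adjusted p = 0.0142), a call lost without MK 3 (0.45) and after length correction (0.37). Efnb1 rose from 814.0, 685.9 and 761.1 to 1037.9, 910.4 and 1091.0 (0.43 ± 0.11, adjusted p = 0.0218), a call lost without IRI 2 (0.36), MK 1 (0.41) or MK 3 (0.37). The groups of both genes stood apart, but the rises were small. Ephb2, a receptor of ephrin-B ligands, was lower, with 335 ± 82.5 and 186 ± 63 normalised reads (-0.87 ± 0.28, adjusted p = 0.0445). That call was lost without IRI 1 (-0.84), IRI 3 (-0.71), MK 1 (-0.59) or MK 3 (-0.92), with edgeR (-0.79), with limma-voom (-0.81), among genes of at least 5 CPM (-0.87) and with the replicate block (-0.87). Among 24 other genes of ephrin signalling 10 were listed, with 5 higher and 5 lower (100% called, against 74.3% of all tested genes). Cish, a suppressor of cytokine signalling, rose by 1.58 ± 0.16, while the exchange factor gene Vav3 (-1.15 ± 0.14) and the phosphatase gene Acp1 (-0.52 ± 0.1) fell. Cish is 1 of the 5 higher genes of this list, and whether it acts in ephrin signalling was not examined.

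Members of the TGF-beta, BMP and activin family mostly rose, with 17 higher, 1 lower and 4 not called among 22 and a median log2 fold change of 0.72. That is 81.8% called. Over all tested genes 74.3% were called, 35.7% higher and 38.7% lower. Among the ligands Inhbb, the subunit of activin B (ENSMUSG00000037035, GRCm38 chromosome 1, 119415465 to 119422248), changed most. It had 180.8, 133.0 and 157.2 normalised reads with IRI and 658.8, 454.7 and 550.8 with MK-8617. The log2 fold change was 1.81 ± 0.18, a 3.5-fold rise with an adjusted p of 0.00029. Bmp6, a ligand that also controls iron balance through hepcidin, rose from 2419.2, 1890.0 and 2020.7 to 3481.4, 3731.2 and 3854.6 (0.81 ± 0.12, adjusted p = 0.00144). In both genes every MK-8617 library was above every IRI library. Gdf15, a stress-induced ligand, rose by 0.89 ± 0.23 and had the highest FPKM of the 22 ligands, 79.6 ± 27.7 with IRI and 141 ± 22.4 with MK-8617 (SD). Its call was lost without IRI 1 (0.89), MK 1 (0.87) or MK 3 (0.78). Bmp4 rose by 0.76 ± 0.19, a call lost without MK 1 (0.69) or MK 2 (0.7). Bmp3 (-0.63, adjusted p = 0.216) and Tgfb3 (-0.71, adjusted p = 0.106), a TGF-beta isoform, did not pass the test. Leaving out IRI 2, in which Tgfb3 had 104.7 normalised reads against 211.1 and 201.3 in IRI 1 and IRI 3, brought it past the threshold (-1.03).

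The receptors did not all move together. Tgfbr1, the type I TGF-beta receptor (chromosome 4, 47353222 to 47414931), had 2112.5, 1911.9 and 2454.0 normalised reads with IRI and 3886.1, 3703.4 and 3613.2 with MK-8617. Its log2 fold change was 0.8 ± 0.11 (adjusted p = 0.00143), and 0.46 after length and GC correction. Tgfbr2, the type II receptor that binds the ligand first, had 3156.5, 3311.8 and 2864.3 normalised reads with IRI and 1931.2, 2153.8 and 2681.7 with MK-8617 (-0.47 ± 0.13, adjusted p = 0.0277). The groups stood apart in both genes, in opposite directions. The call of Tgfbr2 was lost without IRI 1 (-0.46), IRI 2 (-0.43), MK 1 (-0.37) or MK 2 (-0.45), and with edgeR (-0.4), and it held after length correction (-0.71). Per length, Tgfbr2 stood at 21.4 ± 1.62 and Tgfbr1 at 18.6 ± 2.3 FPKM with IRI, and at 15.3 ± 2.68 and 31.8 ± 1.12 FPKM with MK-8617. Acvr2a, a type II activin receptor, rose from 375.7, 372.5 and 391.1 to 673.1, 568.9 and 713.5 normalised reads (0.77 ± 0.12, adjusted p = 0.00211). It was 0.41 after length and GC correction. Its paralogue Acvr2b rose by 0.9 ± 0.24, lost without MK 1 (0.9) or MK 3 (0.82).

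The BMP type II receptor gene Bmpr2 rose by 0.48 ± 0.1, which was 0.19 after length correction and 0.05 after length and GC correction, no longer called in either. The type I receptor genes Acvr1b (0.35 ± 0.1, adjusted p = 0.0336) and Bmpr1a (0.31 ± 0.1, adjusted p = 0.0392) were near the threshold. Leaving out 1 library ended the call of Acvr1b for 5 of the 6 libraries (0.27 to 0.38, all but IRI 3) and that of Bmpr1a for 5 of the 6 (0.28 to 0.35, all but IRI 2). Both were also lost after length correction (0.21 and 0.11), and Bmpr1a with scaling by library total (0.3), with the replicate block (0.31) and after length and GC correction (-0.02), where Acvr1b was at 0.28 and lost too. Acvr1, another type I receptor gene, did not pass the test (0.38, adjusted p = 0.0663), but was called with edgeR (0.44), DESeq2 (0.47) and limma-voom (0.44), and without IRI 3 (0.45).

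Inside the cell, both signalling and inhibitory Smad genes rose. Smad3 transmits TGF-beta and activin signals, Smad1 transmits BMP signals, and Smad6 and Smad7 are feedback inhibitors that these pathways induce. Smad3 had 1281.5, 1395.4 and 1355.5 normalised reads with IRI and 2254.0, 2120.7 and 2624.3 with MK-8617 (0.79 ± 0.11, adjusted p = 0.00115). Smad1 had 465.7, 454.5 and 504.2 against 787.9, 762.0 and 898.5 (0.78 ± 0.11, adjusted p = 0.00139). Smad7 had 635.1, 589.3 and 451.5 against 1226.4, 1056.6 and 1126.1 (1.04 ± 0.14, adjusted p = 0.00113). In each of the 3 genes all MK-8617 libraries were above all IRI libraries, as in 44.8% of all tested genes. Smad6 rose by 0.67 ± 0.15. Smad4, the shared partner of the receptor Smads, rose by 0.43 ± 0.12, a call lost without IRI 1 (0.37), IRI 2 (0.41), MK 1 (0.43) or MK 3 (0.37). Smad5, the close relative of Smad1, did not pass the test (0.26, adjusted p = 0.0925), but was called with edgeR (0.32), DESeq2 (0.35) and limma-voom (0.32). After length and GC correction it was at -0.02. Smurf2, a ubiquitin ligase for Smads and receptors, was at 0.36 ± 0.12 (adjusted p = 0.0476), a call lost when any 1 library was left out (0.28 to 0.42), after length correction (0.18) or length and GC correction (0.16), with scaling by library total (0.34), with the replicate block (0.36) and among genes of at least 5 CPM (0.36). The kinase gene Bmp2k had 433.5, 426.3 and 443.8 normalised reads with IRI and 772.5, 772.7 and 858.1 with MK-8617 (0.88 ± 0.1, adjusted p = 0.000565), and 14% of its exon bases are shared with the opposite strand.

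Of 54 other genes of TGF-beta and BMP signalling 24 were listed. Of these, 15 rose, 6 fell and 3 did not pass the test (median 0.51), and 87.5% were called, against 74.3% of all tested genes. Tgif1, a repressor of Smad-driven transcription, rose from 777 ± 31.2 to 2089 ± 134 normalised reads (1.42 ± 0.09, adjusted p = 5.47e-05). Thbs1, thrombospondin 1, which can activate latent TGF-beta, rose by 1.19 ± 0.14 and Pmepa1, a TGF-beta-induced feedback inhibitor, by 0.93 ± 0.12. Of genes named after their values were seen, the TGF-beta target gene Skil (0.72) rose. Among genes of latent TGF-beta binding proteins Ltbp2 fell (-2.39), while Ltbp1 (-0.52, adjusted p = 0.0997) and Ltbp3 (-0.3, adjusted p = 0.0597) did not pass the test. The fibrillin gene Fbn1 (-1.58) and the proteoglycan gene Bgn (-0.71) fell, and Dcn, the gene of another proteoglycan that binds TGF-beta, rose (0.76, adjusted p = 0.0145). Of the fibroblast and mural markers, with the summed levels given above, 9 of 10 were lower and Dcn was higher, and their part in these changes was not tested.

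In the EGF family the ligand and 2 receptors rose and 1 receptor fell (100% called, against 74.3% of all tested genes). Hbegf, a membrane-anchored ligand of the EGF receptor, had 781.8, 739.6 and 663.4 normalised reads with IRI and 1392.3, 1116.4 and 2147.9 with MK-8617 (1.04 ± 0.21, adjusted p = 0.0066). Egfr (ENSMUSG00000020122, GRCm38 chromosome 11, 16752203 to 16918158) had 1016.5, 991.0 and 938.5 against 1587.0, 1500.6 and 1973.6 (0.77 ± 0.12, adjusted p = 0.00204). Ligand and receptor were higher in every MK-8617 library, though Egfr, a long gene, was at 0.51 after length correction and at 0.45 after length and GC correction, still past the threshold. Erbb3, a neuregulin receptor with little kinase activity of its own, rose from 1184.0, 1136.7 and 1265.4 to 2129.0, 1502.7 and 1955.5 (0.63 ± 0.14, adjusted p = 0.00912). Erbb4, the other neuregulin receptor, fell from 258.4, 219.5 and 255.9 to 70.7, 143.0 and 104.2 (-1.25 ± 0.25, adjusted p = 0.00682). Its groups stood apart as well, and per length it was among the lowest of the 20 receptors, at 1.11 ± 0.0995 FPKM with IRI and 0.477 ± 0.162 FPKM with MK-8617. Of 40 other genes of this pathway 23 were listed, of which 16 rose and 2 fell (median 0.56). The share called was 78.3%, against 74.3% of all tested genes. Errfi1, a feedback inhibitor of EGFR, rose from 5975 ± 341 to 15722 ± 3409 normalised reads (1.37 ± 0.16). Egf itself, made in the distal nephron, rose by 2.24 ± 0.28 and the Ras exchange factor gene Sos1 by 0.9 ± 0.12 (0.51 after length and GC correction).

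Among the FGF genes both receptors and 2 of 3 ligands rose, and 1 ligand fell (100% called, against 74.3% of all tested genes). Fgf18 (ENSMUSG00000057967, GRCm38 chromosome 11, 33117430 to 33147400) had 41.6, 54.7 and 9.59 normalised reads with IRI and 204.9, 238.0 and 213.7 with MK-8617 (2.91 ± 0.54, adjusted p = 0.00446). IRI 3 was the lowest of the IRI libraries, as it was for Igfbp1 and for the proximal tubule markers. Without it the log2 fold change of Fgf18 was 2.17, still past the threshold. Fgf21, a hormone-like FGF of liver and stressed tissue, was counted 4 times in the IRI libraries together and 48 times in the MK-8617 libraries. The ratio of CPM was 13.3, with a 95% exact interval of 4.86 to 50.7 that covers counting error only, and the limma log2 fold change was 3 ± 0.5 (adjusted p = 0.00281), or 1.8 with a pseudocount of 5. Fgf1, acidic FGF, fell from 2668.1, 2604.1 and 1814.6 to 1064.5, 1321.3 and 1446.1 (-0.88 ± 0.17, adjusted p = 0.00571). Per length, Fgf1 went from 28.6 ± 5.86 to 15.3 ± 2.37 FPKM and remained the highest of the 3 FGF ligands by mean, above Fgf18 at 1.68 ± 1.1 and then 10.2 ± 0.776 FPKM.

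Fgfr4, an FGF receptor of epithelia, had 521.5, 540.1 and 451.5 normalised reads with IRI and 935.4, 957.3 and 847.5 with MK-8617 (0.86 ± 0.11, adjusted p = 0.00097). Fgfr1 had 1556.9, 1389.9 and 1625.8 against 2359.5, 2265.8 and 2496.7 (0.64 ± 0.1, adjusted p = 0.00209). The 2 receptors were at like levels per length, 8.01 ± 0.767 and 8.68 ± 0.68 FPKM with IRI and 14.3 ± 0.85 and 13.4 ± 0.714 FPKM with MK-8617. Of 27 other genes of this pathway 14 were listed, with 3 higher and 5 lower (57.1% called, against 74.3% of all tested genes). The co-receptor proteoglycan gene Sdc4 (0.61 ± 0.12) and the FGF carrier gene Fgfbp3 (0.97 ± 0.21) rose, and Flrt1, an FGF receptor-binding membrane protein gene, fell (-1.12 ± 0.22). Sdc1, a paralogue of Sdc4 named after its values were seen, went the other way (-0.82 ± 0.18, limma adjusted p = 0.00933).

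**Figure D4:**
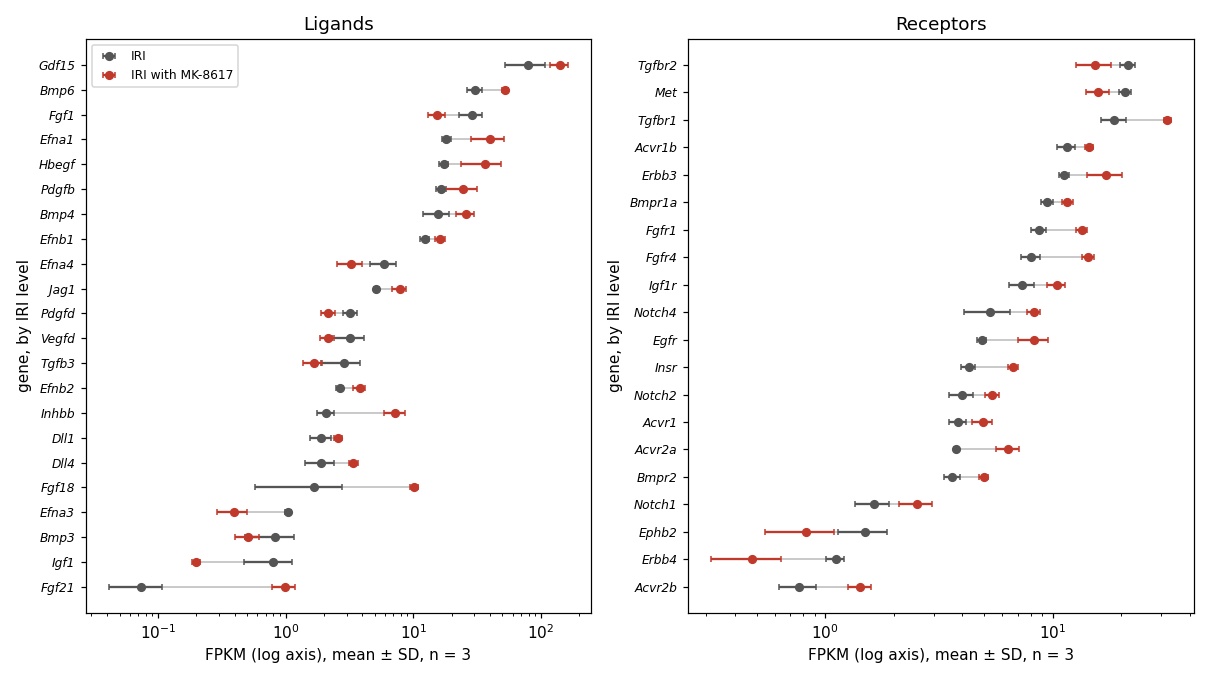
Points are the mean FPKM of the 22 ligand genes and the 20 receptor genes on a log axis, with the SD over 3 libraries, ordered by the IRI level. With IRI the means of Tgfbr2 and Met differ by less than their SD. Gdf15 is the highest ligand in both groups, and Tgfbr1 passes Tgfbr2 and Met to become the highest receptor with MK-8617.

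Notch genes rose by modest amounts, with 6 higher, 1 lower and 1 not called among 8 and a median of 0.56. That is 87.5% called, against 74.3% of all tested genes. Jag1, a Notch ligand (ENSMUSG00000027276, GRCm38 chromosome 2, 137081456 to 137116644), had 539.5, 502.8 and 549.3 normalised reads with IRI and 792.0, 734.3 and 932.5 with MK-8617 (0.62 ± 0.12, adjusted p = 0.00508). Dll4, the ligand of arterial and sprouting endothelium, had 136.3, 159.4 and 94.9 against 214.1, 244.4 and 248.8 (0.88 ± 0.21, adjusted p = 0.0151). The call of Dll4 was lost without MK 2 (0.85) or MK 3 (0.84). Dll1 did not pass the test (0.47, adjusted p = 0.0978), though it did without IRI 2 (0.61). Of its exon bases 20.5% are shared with a gene of the opposite strand. All 3 ligands were higher in every MK-8617 library than in any IRI library, as were 44.8% of all tested genes.

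The receptor of endothelial cells, Notch4, had 852.8, 558.3 and 865.6 normalised reads with IRI and 1168.0, 1143.0 and 1282.4 with MK-8617 (0.68 ± 0.17, adjusted p = 0.0152). Notch1 rose by 0.65 ± 0.16 and Notch2 by 0.47 ± 0.12. After length correction none of the 3 receptors was called (0.47, 0.39 and 0.2 for Notch4, Notch1 and Notch2), and Notch2 was also lost after length and GC correction (0.27). Leaving out libraries ended calls as well: Notch4 without MK 1 (0.7) or MK 3 (0.63), Notch1 without MK 3 (0.52), and Notch2 without MK 2 (0.48) or MK 3 (0.42). The Notch target genes Hes1 and Heyl, both transcriptional repressors, moved apart. Hes1 rose from 676.7, 759.6 and 754.4 to 1156.7, 997.9 and 941.1 (0.49 ± 0.11, adjusted p = 0.0111), and it was at 0.89 after length correction and at 0.93 after length and GC correction. Its call was lost without MK 1 (0.41). Heyl, a target in mural cells, stood at 229 ± 47.7 and 136 ± 38 normalised reads with overlapping groups (-0.75 ± 0.24, adjusted p = 0.0466). That call was lost without IRI 2 (-0.67), IRI 3 (-0.65), MK 2 (-0.64) or MK 3 (-0.65), with edgeR (-0.68), DESeq2 (-0.66) and limma-voom (-0.69), among genes of at least 5 CPM (-0.75) and with the replicate block (-0.75). Endothelial markers stood at 111 to 133 CPM with IRI and 108 to 122 CPM with MK-8617, summed over the 2 of 12 that were listed, neither of them called. Of 50 other genes of Notch signalling 16 were listed, of which 7 rose and 5 fell (75% called, against 74.3% of all tested genes). Hes6, a Hes family member that counters Hes1, fell (-1.19 ± 0.11), as did the cyclin D1 gene Ccnd1 (-1.82 ± 0.2), and Sox9 rose by 1.56 ± 0.21.

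The HGF receptor gene Met fell slightly. It had 2932.2, 2932.0 and 2661.1 normalised reads with IRI and 2048.0, 2022.5 and 2457.4 with MK-8617 (-0.39 ± 0.11, adjusted p = 0.028). Its groups did not overlap, but the call was lost without IRI 1 (-0.37), IRI 2 (-0.37), MK 1 (-0.35) or MK 2 (-0.34), with edgeR (-0.32), DESeq2 (-0.3) and limma-voom (-0.33). After length correction it was past the threshold at -0.61, and after length and GC correction at -0.65. Of 13 other genes around this receptor 4 were listed, with 1 higher and 2 lower (75% called, against 74.3% of all tested genes). The hyaluronan receptor gene Cd44, a known partner of Met, fell (-1.66 ± 0.22), the semaphorin gene Sema4d rose by 0.59 ± 0.12, and Spint2, an inhibitor of the proteases that activate HGF, was at -0.37 ± 0.11. The call of Spint2 was lost without IRI 1 (-0.37), IRI 2 (-0.36), MK 1 (-0.39) or MK 3 (-0.29), with edgeR (-0.3) and with limma-voom (-0.31).

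None of the 3 PDGF and VEGF ligand genes among the 58 passed the main limma test, which had no replicate block. Pdgfb, which recruits pericytes, had 1309.0, 1089.4 and 1276.9 normalised reads with IRI and 1428.2, 1619.0 and 2441.4 with MK-8617 (0.54 ± 0.19, adjusted p = 0.0578), and it was called with the replicate block in limma (0.54, adjusted p = 0.0367), with edgeR (0.64), DESeq2 (0.67) and limma-voom (0.61), and without MK 1 (0.7). MK 3 was the highest, and without it the value was 0.32. Pdgfd had 200.7, 182.2 and 157.2 against 124.0, 107.8 and 136.1, and its groups did not overlap (-0.55 ± 0.18, adjusted p = 0.0548). It was called without IRI 3 (-0.64) and after length and GC correction (-0.71). Vegfd, a lymphatic growth factor, had 92.8, 151.2 and 165.8 against 93.2, 81.1 and 103.1 (-0.52 ± 0.26, adjusted p = 0.198), with overlapping groups. Of 20 other genes of these pathways 11 were listed, of which 6 rose and 2 fell (72.7% called, against 74.3% of all tested genes). The HIF-induced ligand gene Vegfa rose by 1.14 ± 0.14 and its receptor gene Flt1 by 0.98 ± 0.17, while Sparc, a matrix protein that binds PDGF, fell (-1.07 ± 0.13).

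Many of these genes are long, and across the table the change with MK-8617 varied with length. The median log2 fold change was -0.91 in the shortest decile of tested genes (57 to 1170 exon bases) and 0.4 in the longest decile (9330 to 41324 bases). It stepped from -0.27 at 3877 to 4678 bases to 0.34 at 4679 to 5698 bases. Only genes of deposited p up to 0.0499 enter this trend and the corrections, and what that selection adds to both was not tested. The median exon length was 4974 bases over the 58 genes against 3876 over the listed genes, and 8124 over the 20 receptors. After length correction the medians were 0.42 for the 58 genes and 0.07 for all genes, a distance of 0.35 against 0.85 before. In that setting 30 genes rose and 9 fell, and after length and GC correction 33 rose and 10 fell. Length correction ended the call of 10 genes, and length and GC correction that of 8. The long genes Bmpr2, Igf1r and Notch2 lost it in both. Other genes, named here after their values were seen, ran against the trend. Fgf18, Igfbp1, Igfbp3 and Efna1 have exons shorter than the listed median and rose while the median gene of their length was lower. Igf1, Igf2bp1 and Erbb4 are long genes that fell. The part of length in the change of any of these genes was not tested.

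**Figure D5:**
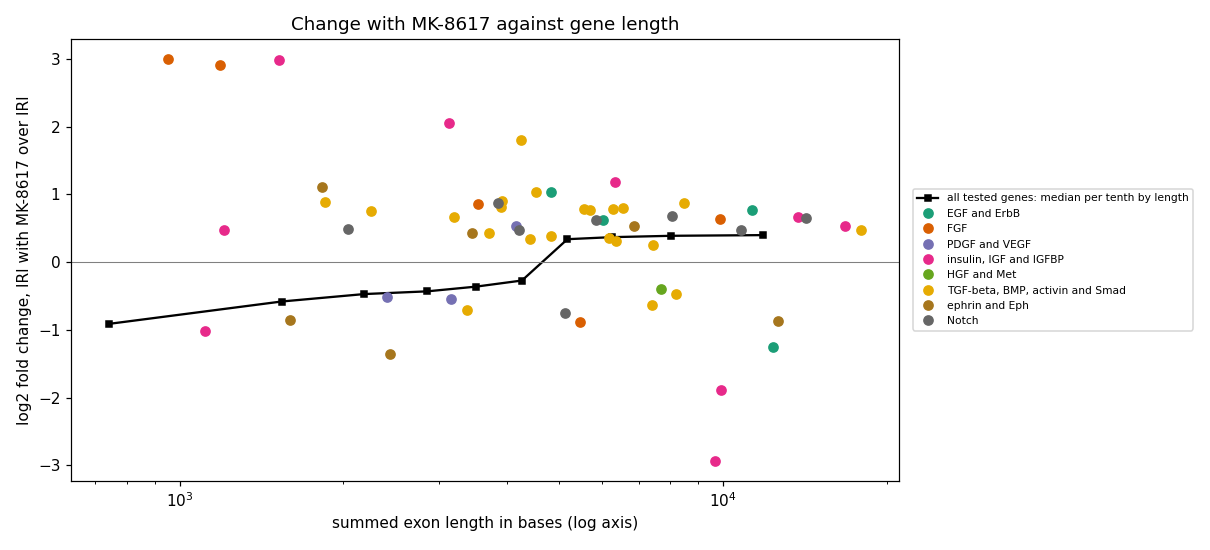
Points are the 58 genes, by summed exon length on a log axis and by log2 fold change, IRI with MK-8617 over IRI, and the black line joins the medians of all tested genes in deciles by length. The line runs from -0.91 to 0.4, so that long receptor genes with changes near 0.4 lie close to it. It rests on listed genes alone, which were selected by p.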

How the data were processed

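Kidney RNA was sequenced in 6 libraries, 3 per group. The submitters' processing notes name featureCounts 1.5.0-p3, HISAT2 2.0.5, DESeq2 1.20.0, CASAVA 1.8 and fastp, and a human genome build, although the deposited gene IDs are mouse. The authors deposited size-factor-normalised gene counts (a signal on the scale of reads), FPKM values, the raw count of IRI 3, and log2 fold changes with p-values and adjusted p-values from their comparison, for 7340 genes. Only genes of p up to 0.0499 are listed, which raises the share called. Per the file headers no annotation is named, and coordinates are from GENCODE M21 (GRCm38).

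Whole reads were recovered for 100% of normalised values within 0.001 of a read. 1 read was worth 0.911 to 1.07 normalised reads. The main test was limma 3.58.1 (R 4.3.3) on log2(normalised reads + 1), without a replicate term, with Benjamini-Hochberg adjustment over the 18811 genes that the deposited adjusted p-values imply. A filter on low counts removed 379 genes. The script was tested on simulated data. Alternatives were edgeR 4.0.16, DESeq2 1.42.0 and limma-voom on recovered reads, and other pseudocounts, filters and scaling. Further ones were adjustment over the listed genes alone, a replicate block, length and GC trends, and each library left out. Every matching gene is named. Values per library are given for up to 4 genes per family (8 for TGF-beta) of smallest adjusted p and at least 1 CPM, and for called genes against their family's majority that changed by at least 1 on the log2 scale. Up to 3 genes per pathway list are given by means or changes. Others given per library, among them Igfbp1, Efna4, Tgfbr2 and the promoters shown, were chosen for their size, position or direction after values were seen. Members and lists were chosen with earlier results of these data known.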

Additional observations from a re-analysis of the deposited data

How the results depend on the processing

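Of the 49 genes called, 28 kept their call under every alternative in which they were tested, and 21 lost it under at least 1. Of these 21, 19 lost it when some single library was left out. Of 1038 values of the 58 genes under alternatives, 918 kept direction and side of the threshold, 94 fell short of it, 24 came past it and 2 changed sign: Bmpr1a (-0.02) and Smad5 (-0.02), both after length and GC correction. The count of genes that fell, 10, was 6 at a mean of at least 5 CPM, 6 with edgeR and 6 with limma-voom. It was 6 to 8 with 1 library left out. At a mean of at least 5 CPM 52 of the 58 genes were tested, and Igf1 and Efna3 were not among them. The count of listed genes higher with MK-8617, 2482, was 1488 (without MK 1) to 2446 with 1 library left out, and 1618 without MK 3. Of the 112 other pathway genes 55 rose and 28 fell (74.1% called, against 74.3% of all tested genes). With DESeq2 74 rose and 22 fell, against 3089 and 2313 of the 6961 tested genes. Same-numbered libraries correlated at 0.02, 0.12 and 0.11 in their deviations from the group means, and differently numbered ones at -0.13 to 0.02. Whether the numbers pair the samples is not settled by these values. With the replicate block 38 genes rose and 8 fell. Fgf21 rests on 4 and 48 reads per group, and a count of 3 reads is 0.154 to 0.178 CPM. The cause of these changes was not tested.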
